A study of Mus musculus with 20 samples.

Results

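The effect of the CreER-Raptor genotype on gene expression in lineage-negative (Lin-) bone marrow cells cultured with M-CSF was compared with its effect in common myeloid progenitors (CMPs). For each gene the quantity tested was a difference of differences, namely the genotype change under M-CSF minus the genotype change in CMPs, from here on called the interaction. The groups compared held 14 of the 20 arrays in the series. The other 6 arrays, of granulocyte-macrophage progenitors (GMPs), entered the fit for its estimate of the spread. The comparison was made for 16638 genes, each represented by the probe set of highest mean signal. Of these genes 1292 (7.77%) had an interaction that passed the limma test at an adjusted p under 0.05, 718 with a higher (4.32%) and 574 with a lower (3.45%) genotype change under M-CSF. "Called" means past this threshold throughout.

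The groups were WT CMPs (3 arrays) and CreER-Rptor-flox/flox CMPs (3 arrays), both freshly isolated by sorting, and WT Lin- cells (4 arrays) and CreER-Rptor-flox/flox Lin- cells (4 arrays), both sorted and then cultured for 12 h with M-CSF at 10 ng/ml. All mice were female and on a C57BL/6 background, and the labels give no age, no Cre inducer and no statement on whether WT mice carried CreER. Nor do they say whether each replicate was a different animal, and the p-values therefore reflect variation among the arrayed samples, part or all of which could be technical. Cells that carry the floxed alleles are called Rptor cells here. The 2 populations differ in the sorted fraction, in culture and in exposure to M-CSF, and no unstimulated Lin- group was used, so these cannot be told apart as the source of an interaction.

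Rptor encodes Raptor, the scaffold that brings substrates to the kinase complex mTORC1, which couples growth factors and amino acids to protein, lipid and nucleotide synthesis and restrains lysosomal and autophagy genes. M-CSF acts through the receptor tyrosine kinase encoded by Csf1r and drives progenitors toward monocytes and macrophages. CMPs are Kit-positive progenitors from which granulocytes, monocytes, erythroid cells and platelets arise, whereas the Lin- fraction holds these and other immature cells.

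The identity of the samples was checked on defining markers. Kit, the stem cell factor receptor, read 10.67 to 11.19 on the log2 scale in the 6 CMP arrays and 8.73 to 9.97 in the 8 M-CSF arrays, and Cd34 read 9.09 to 10.76 and 9.76 to 10.18. The CMP genotypes were apart in both markers, with Kit at 10.67 to 10.81 in WT and 11.09 to 11.19 in Rptor arrays. In the same order Cd34 read 10.55 to 10.76 and 9.09 to 9.89, and Fcgr3, an Fc gamma receptor gene, 9.28 to 9.79 and 8.63 to 9.07. Fcgr2b overlapped. The erythroid factor gene Klf1 read 7.41 to 7.60 and 8.56 to 9.12. A difference in cell make-up between the CMP genotypes was not tested. T and B cell transcripts were low in CMPs and higher in the cultures, with Cd3e at 4.62 to 5.17 against 7.06 to 8.89 and Cd79a at 4.39 to 4.84 against 6.38 to 7.57, and their part in any interaction was not tested. Arrays of a group correlated at 0.986 to 0.996. The residual spread of an array was 0.147 to 0.191 log2 units in CMPs and 0.197 to 0.273 under M-CSF, the highest being WT M-CSF replicate 3, which stood apart in neutrophil transcripts. Without that array 1365 genes were called.

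The genotype changes of the 2 populations had a Pearson r of 0.278 and a Spearman coefficient of 0.242 across the 16638 genes, as a description, where genes are not independent replicates. The genotype change was called for 1905 genes (11.4%) in CMPs, 1000 higher (6.01%) and 905 lower (5.44%) in Rptor cells, and for 2088 (12.5%) under M-CSF, 1135 higher (6.82%) and 953 lower (5.73%). Of the 3425 genes called in either, 1208 (35.3%) also had a called interaction. Genes called in both populations went in the same direction in 464 cases and in opposite directions in 104. Of the 464, 401 had no called interaction, so the split that follows, limited to interaction genes, leaves most shared changes out. Among the 1292 interaction genes, 610 changed with genotype in CMPs alone, 431 under M-CSF alone, 104 in both in opposite directions and 63 in both in the same direction, while 84 were called in neither. The interaction exceeded 1 log2 unit for 437 of them, 2 units for 58 and 3 units for 11. The 104 opposite genes became 67 without WT CMP replicate 3 and 69 without WT CMP replicate 1, the 63 became 39 without Rptor CMP replicate 2, and the 1905 CMP calls became 1229 without that same array. With arrays weighted by population, calls were 2601 in CMPs and fewer than that under M-CSF, the reverse of the order above.

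**Figure D1:**
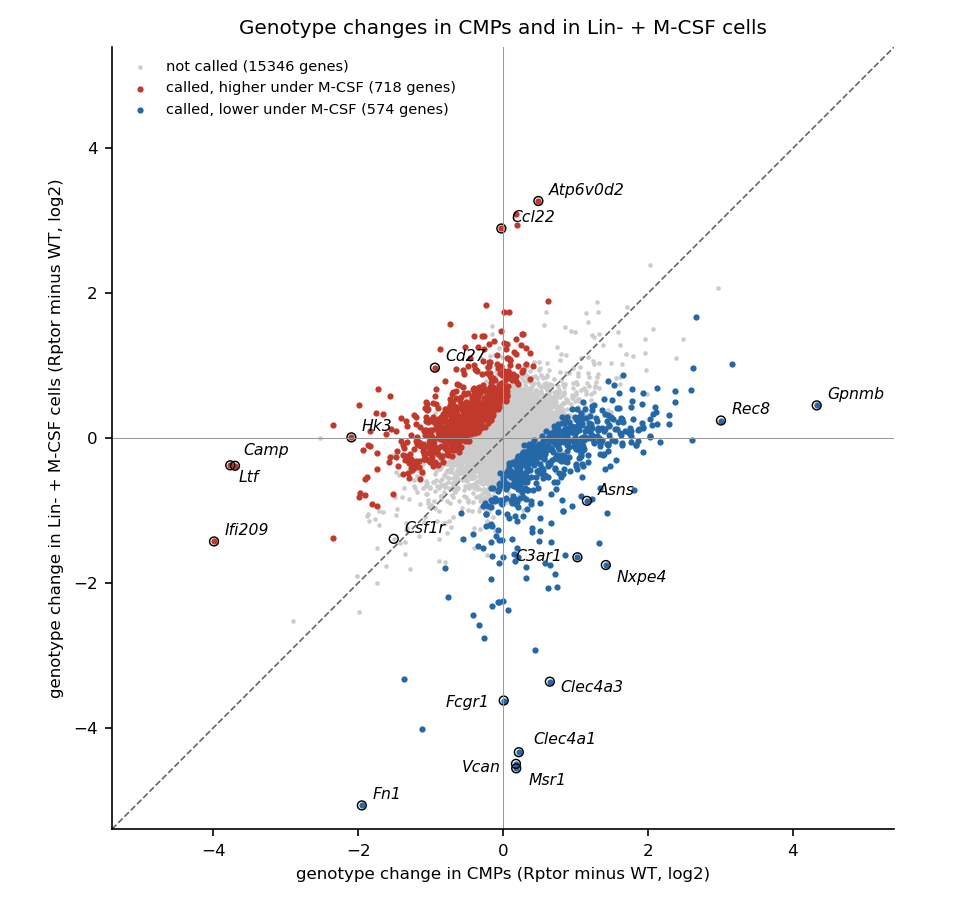
Genotype change (Rptor minus WT, log2) of 16638 genes in CMPs on the x axis and in Lin- + M-CSF cells on the y axis, with the 718 genes called higher under M-CSF in red, the 574 called lower in blue, and the dashed line marking equal changes. Macrophage genes such as Msr1 and Vcan lie far below the line at a CMP change near 0, granule genes such as Ltf far to its left, and Csf1r (-1.51 and -1.39) close to it.

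Genes known from macrophages stood among the strongest negative interactions. Msr1, Vcan, Fcgr1 and the C-type lectin receptor gene Clec4a1 were high in WT Lin- cells under M-CSF and low in the other 3 groups. In these bulk samples fewer cells of a type and less RNA per cell cannot be told apart.

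Msr1 encodes the class A scavenger receptor, a sink for modified lipoproteins. It read 8.27, 7.84, 8.89 and 8.11 in WT M-CSF arrays and 3.68, 3.99, 3.61 and 3.57 in Rptor M-CSF arrays, against 3.40, 3.55 and 3.55 in WT CMPs and 3.63, 3.48 and 3.93 in Rptor CMPs. The WT M-CSF arrays stood above all others without overlap. Its level was 23.6-fold lower in Rptor M-CSF cells, and its interaction was -4.74 ± 0.28 (SE, adjusted p = 7.75e-10). Vcan, the matrix proteoglycan versican of monocytes, read 8.27, 8.22, 7.95 and 8.43 in WT and 3.55, 3.63, 3.98 and 3.71 in Rptor M-CSF arrays, with 3.50 to 3.59 and 3.71 to 3.74 in WT and Rptor CMPs (interaction -4.68 ± 0.17, adjusted p = 6.36e-14). The CMP group means of both genes were below the filter threshold of 3.86 in either genotype, so their CMP change was read near the lowest signals of the array.

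Clec4a1 fell by 4.34 ± 0.09 under M-CSF, from 8.44 to 8.70 in WT to 4.15 to 4.32 in Rptor arrays, and read 3.77 to 4.17 in CMPs (interaction -4.56 ± 0.14, adjusted p = 2.59e-15). Fcgr1, the high-affinity IgG receptor, read 8.24, 8.33, 8.44 and 8.27 against 5.01, 4.62, 4.76 and 4.38 under M-CSF, while WT CMPs read 4.98, 5.03 and 5.55 and Rptor CMPs 4.92, 5.09 and 5.57. The CMP arrays of the genotypes overlapped throughout for Fcgr1, with a change of 0.01 ± 0.19, and its interaction was -3.63 ± 0.25 (adjusted p = 7.02e-09). Ms4a4a, a tetraspanning protein of macrophages, fell by 2.93 ± 0.23 under M-CSF and was dim in CMPs (interaction -3.37 ± 0.35). Cd36, a fatty acid and scavenger receptor, read 7.14, 5.98, 7.95 and 5.51 in WT and 4.47, 4.99, 4.51 and 4.37 in Rptor M-CSF arrays, a fall with wide WT spread (interaction -2.80 ± 0.50, adjusted p = 0.000922).

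Fn1, which encodes fibronectin, differed from these in that it fell in both populations. It read 7.62, 7.42 and 7.72 in WT CMPs and 5.48, 5.63 and 5.80 in Rptor CMPs, and 10.03, 9.77, 10.54 and 9.91 in WT against 4.96, 4.76, 5.20 and 5.04 in Rptor M-CSF cells. The change was -1.95 ± 0.17 log2 units in CMPs and -5.07 ± 0.15 under M-CSF (33.7-fold lower), so the interaction was -3.12 ± 0.22 (adjusted p = 1.42e-08). In GMPs, the granulocyte-macrophage progenitors of the same series, Fn1 fell by 2.22.

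**Figure D2:**
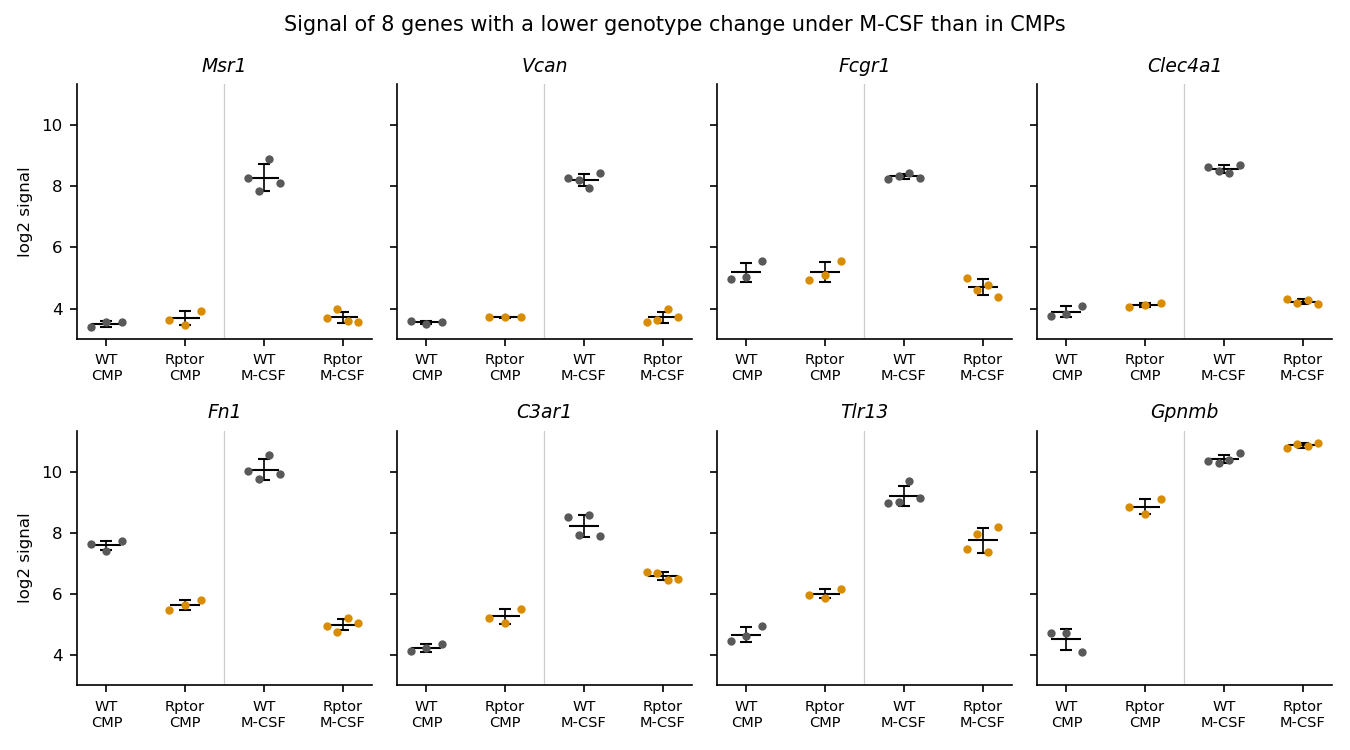
Log2 signal of 8 genes on each array of the 4 groups (points; grey WT, orange Rptor), with the group mean and SD as bars. Msr1, Vcan, Fcgr1 and Clec4a1 are high in WT M-CSF cells alone, Fn1 falls in both populations, C3ar1 and Tlr13 differ in opposite directions, and Gpnmb differs mainly in CMPs.

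Of 33 tested members of the monocyte and macrophage list, 13 had a lower and 3 a higher genotype change under M-CSF, with a median interaction of -0.56 against 0.01 over all tested genes. Of all tested genes 3.45% had a lower and 4.32% a higher interaction. Under M-CSF 19 members fell (5.73% of all genes did) and 0 rose (6.82%), while in CMPs 8 fell (5.44%) and 7 rose (6.01%). The examples that follow beyond the genes of largest interaction were chosen after their values were seen. The complement gene C1qb, the phagocytic receptor gene Mertk and Apoe, a lipid carrier of macrophages, rose in Rptor CMPs (by 1.81, 1.04 and 0.84). Under M-CSF C1qb fell by 0.72 and Apoe fell by 0.42, and Mertk differed by -0.16 without passing (interactions -2.53, -1.27 and -1.21). Adgre1, which encodes the macrophage antigen F4/80, fell by 1.49 under M-CSF and differed by -0.34 in CMPs without passing (interaction -1.15 ± 0.18, adjusted p = 0.000185). Ly6c2 and Itgam, markers of inflammatory monocytes and of myeloid cells in general, had the opposite pattern, with changes of -1.17 and -1.09 in CMPs and differences of -0.09 and 0.09 under M-CSF that did not pass.

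In other monocyte genes no difference between the falls was called. Cx3cr1, the fractalkine receptor gene, fell by 1.72 in CMPs and fell by 1.20 under M-CSF, and its interaction of 0.51 was called only without WT M-CSF replicate 3 among the arrays left out in turn (0.67, adjusted p = 0.035). Ms4a6c had changes of -1.61 and -1.77 and Ms4a4c of -2.90 and -2.53, with interactions of -0.16 and 0.37 that did not pass (adjusted p = 0.685 and 0.609).

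Of 14 tested members of the primary granule and granulocyte progenitor list, 11 had a higher and 0 a lower change under M-CSF (median interaction 0.67). The shares of all tested genes were 4.32% and 3.45%. In CMPs 9 members fell and 0 rose (5.44% and 6.01% of all genes), and under M-CSF 3 rose and 0 fell (6.82% and 5.73%). Ltf, the iron-binding secondary granule protein lactoferrin, read 9.69, 10.10 and 10.06 in WT CMPs and 6.22, 6.24 and 6.09 in Rptor CMPs. Under M-CSF it read 10.74, 10.74, 12.01 and 10.37 in WT and 10.58, 10.83, 10.36 and 10.58 in Rptor cells. The genotypes were fully apart in CMPs (13.6-fold lower in Rptor cells) and overlapped under M-CSF, and the interaction of 3.39 ± 0.36 (adjusted p = 2.15e-06) became 3.74 without WT M-CSF replicate 3. Camp, the antimicrobial peptide cathelicidin, read 10.39, 10.76 and 10.66 against 6.73, 7.29 and 6.67 in CMPs and 11.36, 11.48, 11.91 and 11.21 against 11.06, 11.14, 11.03 and 11.19 under M-CSF (interaction 3.32 ± 0.29, adjusted p = 2.39e-07). All Rptor M-CSF arrays were below the WT ones for Camp, by 0.38 on average, without passing (adjusted p = 0.216).

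Cebpe, the transcription factor of terminal granulocyte maturation, read 8.18, 8.15 and 8.67 in WT and 6.53, 6.93 and 6.27 in Rptor CMPs. Under M-CSF it read 9.52, 9.55, 9.78 and 9.29 against 9.86, 10.03, 9.87 and 9.78, where the Rptor arrays lay at or just above the highest WT array and the difference of 0.35 did not pass (interaction 2.11 ± 0.23, adjusted p = 3.77e-06). Fcnb, a ficolin of granulocyte progenitors, fell by 1.84 ± 0.21 in CMPs and differed by 0.10 ± 0.18 under M-CSF. Ngp and the inhibitory lectin receptor gene Clec12a had changes of -1.86 and -1.94 in CMPs, with interactions of 1.76 and 1.77. Among the azurophil granule proteases Elane, Prtn3 and Ctsg the interactions were 0.70, 0.55 and 0.41, on CMP changes of -0.44, -0.42 and, without passing, -0.21.

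The secondary granule and mature neutrophil list depended on 1 array. With all arrays 4 of 20 tested members had a higher and 1 a lower change under M-CSF (median interaction 0.51), against 4.32% and 3.45% of all genes. Without WT M-CSF replicate 3 the member counts were 13 and 1 (median 0.89, with 4.56% of all genes higher). With all arrays 8 members fell and 2 rose in CMPs (5.44% and 6.01% of all genes), and 3 fell and 1 rose under M-CSF (5.73% and 6.82%). The list's mean level was 8.99 to 10.48 in WT M-CSF arrays, with replicate 3 at the top, and 8.98 to 9.49 in Rptor M-CSF arrays. Ly6g, the surface marker of mature neutrophils, chosen here after its values were seen, went the other way. It read 5.81, 5.62 and 5.90 against 4.12, 4.17 and 4.91 in CMPs, and 7.34, 7.62, 9.84 and 7.18 against 4.40, 5.00, 4.44 and 4.82 under M-CSF. Rptor arrays were lower in both populations, and the interaction of -1.96 (adjusted p = 0.0374) was -1.34 without WT M-CSF replicate 3 (adjusted p = 0.00371), but lost its call without any 1 of 7 other arrays (adjusted p up to 0.101).

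Further genes that fell in CMPs without a called change under M-CSF had less tie to granules. Hk3, the myeloid hexokinase, read 8.93, 8.60 and 8.97 in WT and 6.72, 6.91 and 6.59 in Rptor CMPs, and 8.11 to 8.33 in all 8 M-CSF arrays, where the genotypes overlapped (interaction 2.10 ± 0.18, adjusted p = 1.04e-07). Mgl2, a galactose-binding lectin, changed by -1.73 in CMPs and, without passing, by 0.68 under M-CSF, where the genotypes also overlapped. Olr1, a receptor for oxidized lipoprotein, changed by -1.56 in CMPs and, without passing, by 0.58 under M-CSF. There its Rptor arrays (8.70 to 8.89) all lay above the WT arrays (7.95 to 8.35). Bpifc fell in CMPs alone, with an interaction of 2.45. In Mgl2 and Bpifc WT M-CSF replicate 3 was the lowest WT array, at 5.78 and 5.48. Ighm, the immunoglobulin mu heavy chain gene, had an interaction of 2.53 on its brightest probe set, and 0.14 to 2.74 on the 7 probe sets of the gene, of which 2 were called.

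Ifi209, an interferon-inducible gene of the Ifi200 family of DNA-binding proteins, fell in both populations but by different amounts. It read 9.81, 10.06 and 9.88 in WT and 5.99, 6.00 and 5.80 in Rptor CMPs, and 9.18, 9.74, 9.11 and 10.08 against 8.42, 8.10, 7.84 and 8.04 under M-CSF. The change was -3.99 ± 0.22 in CMPs and -1.43 ± 0.19 under M-CSF (interaction 2.56 ± 0.30, adjusted p = 7.19e-06). Its relative Ifi204 fell more under M-CSF, with changes of -4.01 ± 0.30 and, in CMPs, -1.12 ± 0.35. Of all tested genes 4.32% had a higher and 3.45% a lower interaction. Of 6 tested members of the family 2 had a higher (1 when either Rptor CMP replicate 1 or the WT CMP replicate 2 was left out) and 3 a lower change under M-CSF, the lower ones being Ifi204, Ifi205 (-2.40) and Ifi207 (-1.23). These genes are near-identical copies in part, and probe sets could share signal between them.

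**Figure D3:**
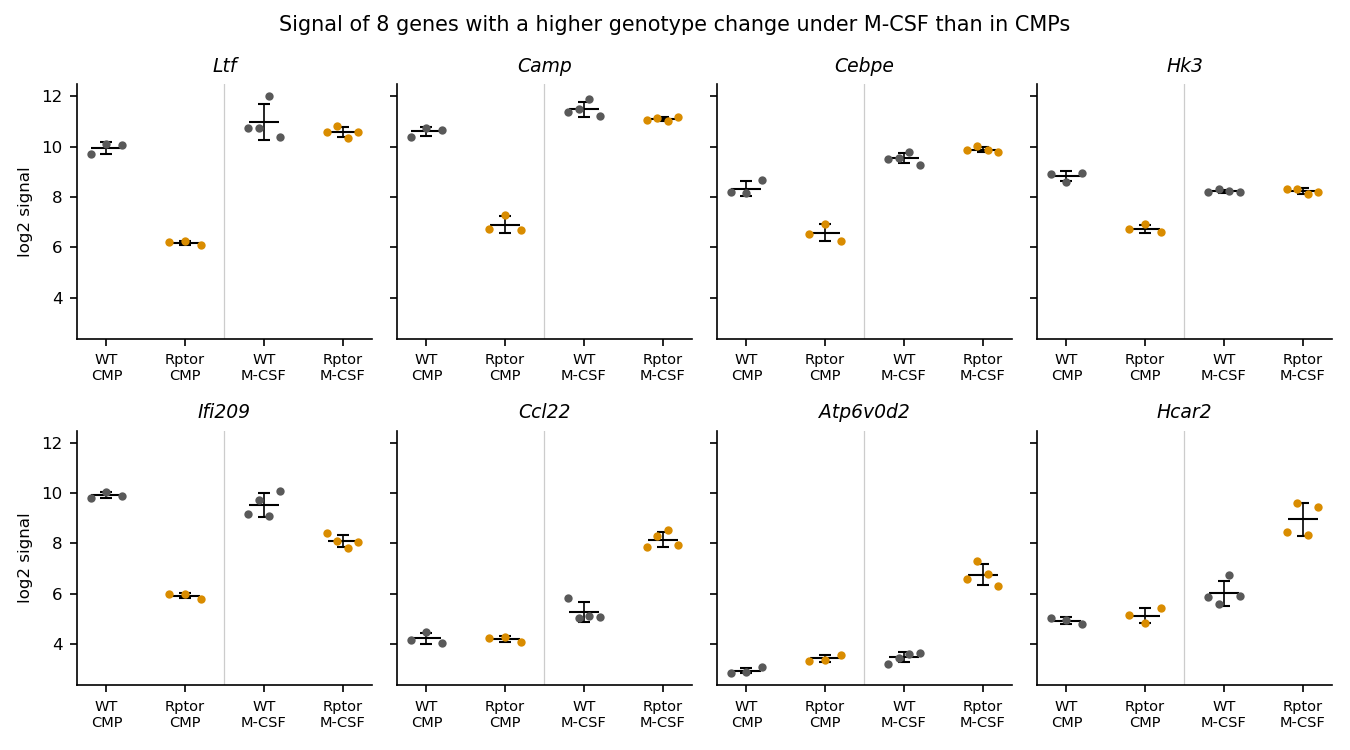
Log2 signal of 8 genes on each array of the 4 groups (points; grey WT, orange Rptor), with the group mean and SD as bars. Ltf, Camp, Cebpe and Hk3 are lower in Rptor CMPs and close between genotypes under M-CSF, Ifi209 falls in both, and Ccl22, Atp6v0d2 and Hcar2 are high in Rptor M-CSF cells alone.

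Among the interaction genes, 258 rose in Rptor cells under M-CSF with no called change in CMPs, against 173 that fell under M-CSF with none. Ccl22, a chemokine that attracts regulatory T cells, read 5.85, 5.04, 5.10 and 5.07 in WT and 7.86, 8.30, 8.52 and 7.95 in Rptor M-CSF cells, and 4.06 to 4.47 in all CMP arrays. The rise was 7.43-fold under M-CSF, with CMP arrays that overlapped (interaction 2.92 ± 0.27, adjusted p = 3.78e-07). Atp6v0d2, a subunit of the proton pump of lysosomes and osteoclasts, read 3.23, 3.45, 3.62 and 3.65 in WT and 6.33 to 7.31 in the 4 Rptor M-CSF arrays, a 9.67-fold rise without overlap. It was dim in CMPs, at 2.87 to 3.08 in WT and 3.33 to 3.59 in Rptor arrays (interaction 2.79 ± 0.22, adjusted p = 7.02e-08). Hcar2, the receptor for niacin and hydroxybutyrate, read 5.86, 5.59, 6.74 and 5.92 against 8.46, 9.62, 8.34 and 9.44 under M-CSF and 4.81 to 5.42 in CMPs (interaction 2.74 ± 0.38).

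Mogat2, an acyltransferase of triglyceride synthesis, rose by 1.57 ± 0.21 under M-CSF and differed by -0.73 ± 0.24 in CMPs, just short of the threshold (adjusted p = 0.0526). Stfa3, a stefin cysteine protease inhibitor, read 7.20, 6.61, 8.92 and 6.10 in WT and 8.95, 9.15, 8.61 and 9.46 in Rptor M-CSF cells, so that WT M-CSF replicate 3 lay within the Rptor range. Its interaction of 2.08 ± 0.56 (adjusted p = 0.0239) was not called without Rptor CMP replicate 1 (2.03, adjusted p = 0.0569), Rptor CMP replicate 2 (2.00, adjusted p = 0.0654) or WT CMP replicate 1 (1.93, adjusted p = 0.0680). Of 26 tested cytokine and chemokine genes 6 had a higher and 1 a lower interaction (median 0.00), against 4.32% and 3.45% of all genes. Besides Ccl22, Ccl3 rose by 0.80 and Il12b by 0.66 under M-CSF, Ccl9 fell by 1.28 in CMPs alone, and Il1b, the interleukin-1 beta gene, fell by 2.58 under M-CSF (interaction -2.25, adjusted p = 0.0105), where WT read 7.03, 6.84, 9.24 and 7.07.

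Gpnmb and Rec8 rose in CMPs with no called change under M-CSF. Gpnmb, a glycoprotein of lysosomes and melanosomes, read 4.72, 4.72 and 4.11 in WT and 8.84, 8.60 and 9.09 in Rptor CMPs, a 20.1-fold rise. Under M-CSF both genotypes were high, at 10.35, 10.29, 10.38 and 10.62 in WT and 10.76, 10.90, 10.83 and 10.95 in Rptor cells. The Rptor arrays lay above WT in both populations, but the M-CSF difference of 0.45 ± 0.16 did not pass (adjusted p = 0.0643), and the interaction was -3.88 ± 0.24 (adjusted p = 1.03e-09). Rec8, a meiotic cohesin subunit, read 5.63, 5.77 and 5.43 against 8.37, 9.04 and 8.44 in CMPs and 4.53 to 5.14 in all M-CSF arrays (interaction -2.77 ± 0.29).

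The lysosome and autophagy list was mixed, with 3 members higher and 6 lower (4 without WT CMP replicate 2) among 37 tested (median interaction -0.03). The shares of all genes were 4.32% and 3.45%. Besides Gpnmb, the cathepsin genes Ctsl and Ctss had lower interactions (-1.08 and -1.07), and Hexa, a lysosomal hexosaminidase, fell by 0.88 in CMPs alone (interaction 0.90). Tfec, of the MiT family of lysosomal transcription factors, fell by 1.08 in CMPs and rose by 0.42 under M-CSF (interaction 1.49 ± 0.16, adjusted p = 3.9e-06). Mitf and Tfeb of that family had interactions of 0.31 and -0.15 that did not pass.

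The genotype change was called in both populations with the same sign in 464 genes. In 104 genes it was called in both with opposite signs, 61 higher under M-CSF and lower in CMPs and 43 the reverse. On the first side, Cd27, a costimulatory receptor of lymphocytes and progenitors, read 8.73, 8.17 and 8.52 in WT and 7.55, 7.24 and 7.81 in Rptor CMPs, and 7.91, 7.80, 7.46 and 7.74 against 8.81, 8.60, 8.51 and 8.88 under M-CSF. WT and Rptor arrays were fully separate in both populations (interaction 1.91 ± 0.24, adjusted p = 1.59e-05). Arap2 fell by 0.95 in CMPs and rose by 0.58 under M-CSF, with every Rptor array on one side of WT in each (interaction 1.53 ± 0.15). Il12a, a subunit of interleukin-12, changed by -0.80 and 0.79, Mc5r, a melanocortin receptor, by -0.92 and 0.68, and Cd69, an early activation marker, by -1.07 and 0.50.

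On the other side, C3ar1, the receptor for complement fragment C3a, read 4.12, 4.23 and 4.36 in WT and 5.21, 5.06 and 5.52 in Rptor CMPs, and 8.52, 7.92, 8.57 and 7.89 against 6.71, 6.67, 6.45 and 6.48 under M-CSF. It was thus higher in every Rptor CMP array and lower in every Rptor M-CSF array than in WT (interaction -2.67 ± 0.22, adjusted p = 8.25e-08), and it rose by 1.12 in GMPs. Tlr13, a sensor of bacterial ribosomal RNA, read 4.45 to 4.94 in WT and 5.88 to 6.17 in Rptor CMPs, and 8.98 to 9.70 against 7.36 to 8.20 under M-CSF (interaction -2.78 ± 0.29). P2ry6, a receptor for UDP on phagocytes, changed by 0.62 and -2.07 and Clec4a3 by 0.65 and -3.36. Nxpe4 rose from 5.58 to 5.64 in WT to 6.67 to 7.48 in Rptor CMPs and fell from 5.96 to 6.77 to 4.24 to 4.70 under M-CSF (interaction -3.17 ± 0.27).

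The Rptor probe set itself had nearly the same genotype difference in both populations. It read 8.72, 8.51 and 8.68 in WT and 8.20, 8.37 and 8.45 in Rptor CMPs, and 7.05, 6.95, 7.34 and 7.17 against 6.92, 6.98, 7.06 and 6.83 under M-CSF. The differences of -0.29 and -0.18 did not pass, and the interaction was 0.11 ± 0.17 (adjusted p = 0.812; two-sided exact permutation of genotype within population, p = 0.594 over 1400 arrangements). The position of its probes within the gene was not examined, and the value therefore does not check the labels. Mtor and Rictor had interactions of 0.31 and -0.20 that did not pass (adjusted p = 0.187 and 0.628).

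Csf1r, through which M-CSF acts, fell in both populations. It read 8.87, 8.86 and 8.78 in WT and 7.49, 7.06 and 7.43 in Rptor CMPs, and 9.78, 9.93, 9.98 and 9.95 against 8.61, 8.46, 8.55 and 8.46 under M-CSF. The changes were -1.51 ± 0.11 and -1.39 ± 0.09, and the interaction of 0.12 had a 95% interval of -0.18 to 0.41 (adjusted p = 0.754). Kit rose in both, by 0.42 in CMPs and 0.99 under M-CSF, with an interaction of 0.58 ± 0.15 (adjusted p = 0.0211) that was not called without WT CMP replicate 1 (0.54, adjusted p = 0.0651).

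Transcription factors of the monocyte path differed from each other. Irf8, which directs monocyte and dendritic cell fate, read 9.83, 9.79 and 9.49 in WT and 8.06, 7.64 and 7.79 in Rptor CMPs, and 9.38, 9.56, 9.30 and 9.54 against 9.02, 8.74, 9.18 and 8.66 under M-CSF. It fell in both, with changes of -1.88 ± 0.18 and -0.54 ± 0.16, so that its interaction was positive (1.33 ± 0.24, adjusted p = 0.00087). Klf4, which acts later in monocytes, read 5.98, 5.95 and 6.01 against 5.35, 5.13 and 5.06 in CMPs and 8.04, 8.25, 8.55 and 8.16 against 6.48, 6.52, 6.63 and 6.22 under M-CSF. Its changes were -0.80 ± 0.15 and -1.79 ± 0.13, so that its interaction was negative (-0.99 ± 0.20, adjusted p = 0.00312). Of 25 tested myeloid factors 3 had a higher (5 without WT M-CSF replicate 2) and 3 a lower interaction, against 4.32% and 3.45% of all genes. Among the called factors were Runx1 (0.75) and Maf, a macrophage factor that fell by 1.29 under M-CSF (interaction -1.81). Spi1, which encodes PU.1, fell by 0.58 in CMPs and differed by -0.19 under M-CSF (interaction 0.39, adjusted p = 0.151). Cebpa, Gfi1 and Myc had interactions of 0.52, 0.77 and 0.53 that did not pass (adjusted p = 0.0606, 0.0914 and 0.108). The interaction change of Cebpa was called without WT M-CSF replicate 2 (adjusted p = 0.0317), Rptor M-CSF replicate 4 (0.0428) or Rptor CMP replicate 3 (0.0107). The interaction change of Gfi1 was called without WT M-CSF replicate 2 (adjusted p = 0.0286), and the interaction change of Myc without WT M-CSF replicate 1 (adjusted p = 0.0356) or Rptor CMP replicate 3 (0.0271).

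**Figure D4:**
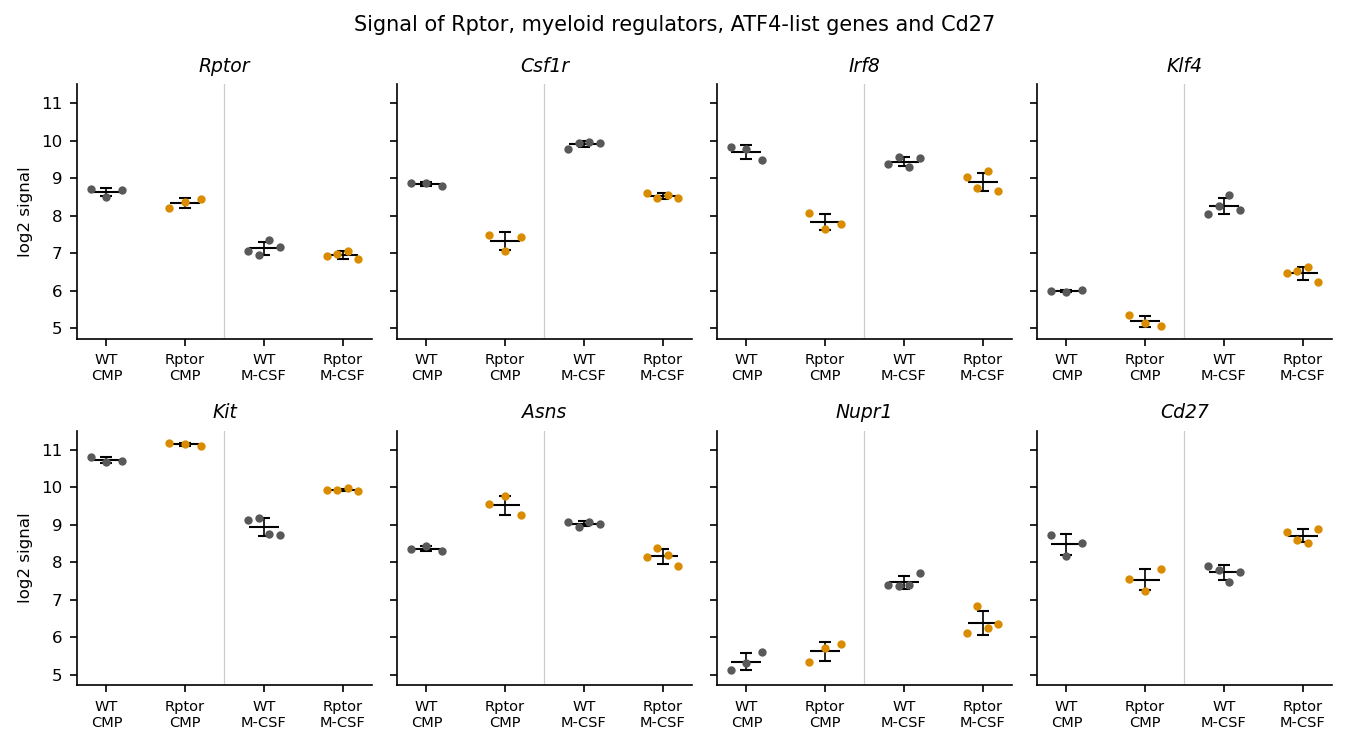
Log2 signal of Rptor, myeloid regulators, 2 genes of the ATF4 list and Cd27 on each array of the 4 groups (points; grey WT, orange Rptor), with the group mean and SD as bars. Csf1r falls in both populations, Klf4 falls more and Irf8 less under M-CSF, and Asns and Cd27 change in opposite directions.

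Genes of amino acid supply, many of them targets of the transcription factor ATF4, which mTORC1 is known to promote, had negative interactions where they were called. Of 33 tested members 0 were higher and 6 lower (median -0.21), against 4.32% and 3.45% of all genes. The count of lower members was 3 when any 1 of Rptor CMP replicates 1 and 2 and WT CMP replicate 2 was left out. In CMPs 4 members rose and 1 fell (6.01% and 5.44% of all genes), and under M-CSF 0 rose and 9 fell (6.82% and 5.73%). Asns, asparagine synthetase, read 8.34, 8.44 and 8.31 in WT and 9.54, 9.77 and 9.26 in Rptor CMPs, and 9.07, 8.93, 9.08 and 9.03 against 8.14, 8.39, 8.20 and 7.90 under M-CSF. It rose by 1.16 ± 0.13 in CMPs and fell by 0.87 ± 0.11 under M-CSF without overlap in either (interaction -2.03 ± 0.17, adjusted p = 8.32e-08). Nupr1, a stress-induced nuclear protein, read 5.13, 5.32 and 5.59 against 5.34, 5.71 and 5.81 in CMPs, which overlapped, and 7.39, 7.36, 7.38 and 7.71 against 6.11, 6.83, 6.23 and 6.34 under M-CSF, which did not (interaction -1.36 ± 0.24, adjusted p = 0.000933). Slc7a5, a leucine transporter, rose by 0.51 in CMPs and differed by -0.10 under M-CSF (interaction -0.61).

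The core letters of the ATF4 element, TGATGNAA on either strand, stood in the RefSeq promoter window (250 bases before to 50 after the start) of 8 of the 29 tested list members that had one (27.6%), against 4.51% of the 27025 genes with a window and 3.97% of all 32851 windows. Asns and Nupr1 were the called members among the 8, and the 250 bases before their starts are shown 5' to 3' on the gene's strand with the matches in capitals, because they place the letters relative to the start. The Asns stretch is chr6:7693210-7693459 and the Nupr1 stretch chr7:126625471-126625720, both on the minus strand of GRCm38.p6, and in Nupr1 the first capitals are an E box, CACGTG, a motif in 7.15% of windows.
Asns: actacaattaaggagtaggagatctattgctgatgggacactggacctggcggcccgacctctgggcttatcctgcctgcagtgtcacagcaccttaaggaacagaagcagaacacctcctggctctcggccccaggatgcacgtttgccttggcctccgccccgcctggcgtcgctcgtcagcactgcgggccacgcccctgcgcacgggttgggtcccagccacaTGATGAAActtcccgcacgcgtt
Nupr1: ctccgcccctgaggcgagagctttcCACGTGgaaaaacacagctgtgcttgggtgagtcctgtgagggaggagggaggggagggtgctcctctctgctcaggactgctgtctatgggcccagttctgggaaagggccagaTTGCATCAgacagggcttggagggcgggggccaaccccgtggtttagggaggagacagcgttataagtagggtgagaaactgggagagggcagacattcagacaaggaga
The element begins at base -23 in Asns and, on the opposite strand, at -110 in Nupr1. A match of letters is a description of the window and no measure of binding. Many members of this list are known ATF4 targets, so a share of the element above that of all genes was built into it. That share does not bear on the interaction.

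Of the mTOR list, 2 of 37 tested members had a higher and 3 a lower interaction (median -0.07), against 4.32% and 3.45% of all genes. The 2 became 0 without any 1 of Rptor M-CSF replicate 1, Rptor CMP replicates 1 and 2 and WT CMP replicate 2, and 1 without any 1 of 6 other arrays. The lower ones were Fnip2, a partner of folliculin in amino acid sensing, which rose by 1.31 ± 0.16 in CMPs and differed by 0.11 under M-CSF (-1.20, adjusted p = 0.000596), Ddit4, an inhibitor of mTORC1, which rose by 0.61 in CMPs (-0.95 ± 0.18, adjusted p = 0.00179), and Eif4ebp1, a translation repressor controlled by mTORC1, which rose by 0.52 in CMPs (-0.65).

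Of 23 tested genes of cholesterol synthesis, which mTORC1 promotes through SREBP, 8 fell in CMPs (5.44% of all genes) and 11 under M-CSF (5.73%), and 0 rose in either. The median interaction was 0.00, with 1 member higher and 3 lower, against 4.32% and 3.45% of all genes. The lower count was 1 without Rptor CMP replicate 2. Fdps, farnesyl diphosphate synthase, fell by 1.27 in CMPs and fell by 0.42 under M-CSF (interaction 0.86 ± 0.16), and Cyp51, lanosterol demethylase, fell by 1.05 under M-CSF with -0.23 in CMPs (interaction -0.82 ± 0.18, adjusted p = 0.0058). Srebf2 had an interaction of 0.43 (adjusted p = 0.0802). Of 21 endoplasmic reticulum chaperone and unfolded protein genes, 10 fell and 0 rose in CMPs (5.44% and 6.01% of all genes). Under M-CSF 2 fell and 1 rose (5.73% and 6.82%). Against 4.32% of all genes, 2 of the 21 interactions were higher (median 0.29, with 5 higher without Rptor M-CSF replicate 4). Those were Ern1, the stress sensor IRE1, which fell by 1.05 in CMPs and rose by 0.48 under M-CSF, and the chaperone Calr (interaction 0.64).

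Of 18 tested stem and multipotent progenitor genes 9 were higher in interaction and 1 lower (median 0.53), against 4.32% and 3.45% of all genes. Under M-CSF 8 rose and 1 fell (6.82% and 5.73% of all genes), and in CMPs 3 rose and 4 fell (6.01% and 5.44%). Myct1, a target of Myc in stem cells, rose by 1.26 ± 0.17 under M-CSF, and Erg, a transcription factor of stem cells, fell by 0.66 in CMPs and rose by 0.43 under M-CSF. Sox4 fell by 1.24 in CMPs (interaction 1.56), and Cd34 fell by 1.08 (interaction 0.95). Of 16 megakaryocyte and platelet genes 4 were higher and 0 lower (6 higher without WT M-CSF replicate 1), against 4.32% and 3.45% of all genes. In this list 8 rose and 0 fell under M-CSF (6.82% and 5.73% of all genes), and 3 rose and 0 fell in CMPs (6.01% and 5.44%). The 4 include Pf4, platelet factor 4, which read 7.24, 7.80, 6.90 and 7.44 in WT and 8.10, 8.44, 8.51 and 8.14 in Rptor M-CSF cells (interaction 1.60 ± 0.29, adjusted p = 0.00104), and Gucy1a1, a guanylate cyclase subunit (1.78 ± 0.25).

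Erythroid genes rose in both populations. Of 20 tested members 14 rose in CMPs and 14 under M-CSF, against 6.01% and 6.82% of all genes. The list had 0 higher and 3 lower interactions (median -0.31, with 6 lower without Rptor CMP replicate 3), against 4.32% and 3.45% of all genes. Rhag, a membrane protein of red cells, read 8.24, 8.55 and 8.18 against 10.82, 11.30 and 10.28 in CMPs and 4.49, 4.88, 3.97 and 4.82 against 5.45, 6.48, 5.53 and 6.19 under M-CSF (interaction -1.11, adjusted p = 0.227). Its rise was called in each population, on a far lower level in the cultures. Epor, the erythropoietin receptor gene, rose by 1.63 in CMPs and differed by 0.27 under M-CSF (interaction -1.36 ± 0.29, adjusted p = 0.00403), and Sphk1, a sphingosine kinase, rose by 1.45 in CMPs alone.

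Of 16 dendritic cell genes 1 was higher and 5 lower in interaction (median -0.31), against 4.32% and 3.45% of all genes. The class II genes H2-Aa and H2-Eb1 rose by 1.77 each in Rptor CMPs and differed by 0.10 and 0.03 under M-CSF (interactions -1.67 and -1.74), and Cd86, a costimulatory ligand, fell by 1.10 under M-CSF alone. Il4, of the mast cell and basophil list, rose by 1.74 in CMPs alone (interaction -1.67). Of 14 T and NK cell genes 4 were higher and 0 lower (median 0.65, with 2 higher without Rptor CMP replicate 2), against the same 4.32% and 3.45%. Cd3d, a chain of the T cell receptor complex, read 4.35 to 4.56 in all CMP arrays, 6.57 to 7.46 in WT and 8.03 to 8.49 in Rptor M-CSF cells (interaction 1.06 ± 0.25, adjusted p = 0.00966), and Nkg7 fell by 0.79 in CMPs. The mean level of the T and NK list was 5.09 to 5.33 in CMPs, 6.09 to 6.43 in WT and 6.48 to 6.87 in Rptor M-CSF arrays, and its part in the other interactions was not tested.

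Of 29 interferon-stimulated genes 12 fell and 0 rose in CMPs (5.44% and 6.01% of all genes), and 11 fell and 1 rose under M-CSF (5.73% and 6.82%). Their interactions were 2 higher and 1 lower (median 0.05; 4.32% and 3.45% of all genes). The 2 higher were 0 or 1 with any array left out other than Rptor CMP replicate 3, and the lower one became 0 when any 1 of Rptor M-CSF replicate 1, Rptor CMP replicate 2 and the second WT CMP array was left out. Of 27 genes of the G2 phase and mitosis 13 fell under M-CSF and 1 in CMPs (5.73% and 5.44% of all genes). In this list 2 interactions were lower (median -0.26), against 3.45% of all genes. That count was 5 without Rptor CMP replicate 3, and 0 or 1 with any other array left out except WT M-CSF replicate 1 and Rptor M-CSF replicates 3 and 4. Against 7.77% of all genes, called interactions were 1 of 38 in ribosome biogenesis, 1 of 33 in cytosolic ribosomal proteins, 1 of 33 in the respiratory chain, 1 of 28 in S phase and 0 of 16 in G1 control. Among the other lists, immediate early genes had 4 higher and 1 lower of 27, glycolysis 3 higher (1 without Rptor CMP replicate 2) of 24, and growth factor receptors 1 higher (0 without WT CMP replicate 1) and 2 lower of 21. Beside these counts, 4.32% of all genes were higher and 3.45% lower. The 4 higher immediate early genes became 2 without WT CMP replicate 1 or Rptor CMP replicate 2, and the lower one became 0 without WT CMP replicate 1, WT CMP replicate 3 or Rptor CMP replicate 3. The metallothionein gene Mt1, a zinc-binding protein, rose by 1.53 in CMPs and by 0.73 under M-CSF (interaction -0.80 ± 0.14, adjusted p = 0.000779).

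**Figure D5:**
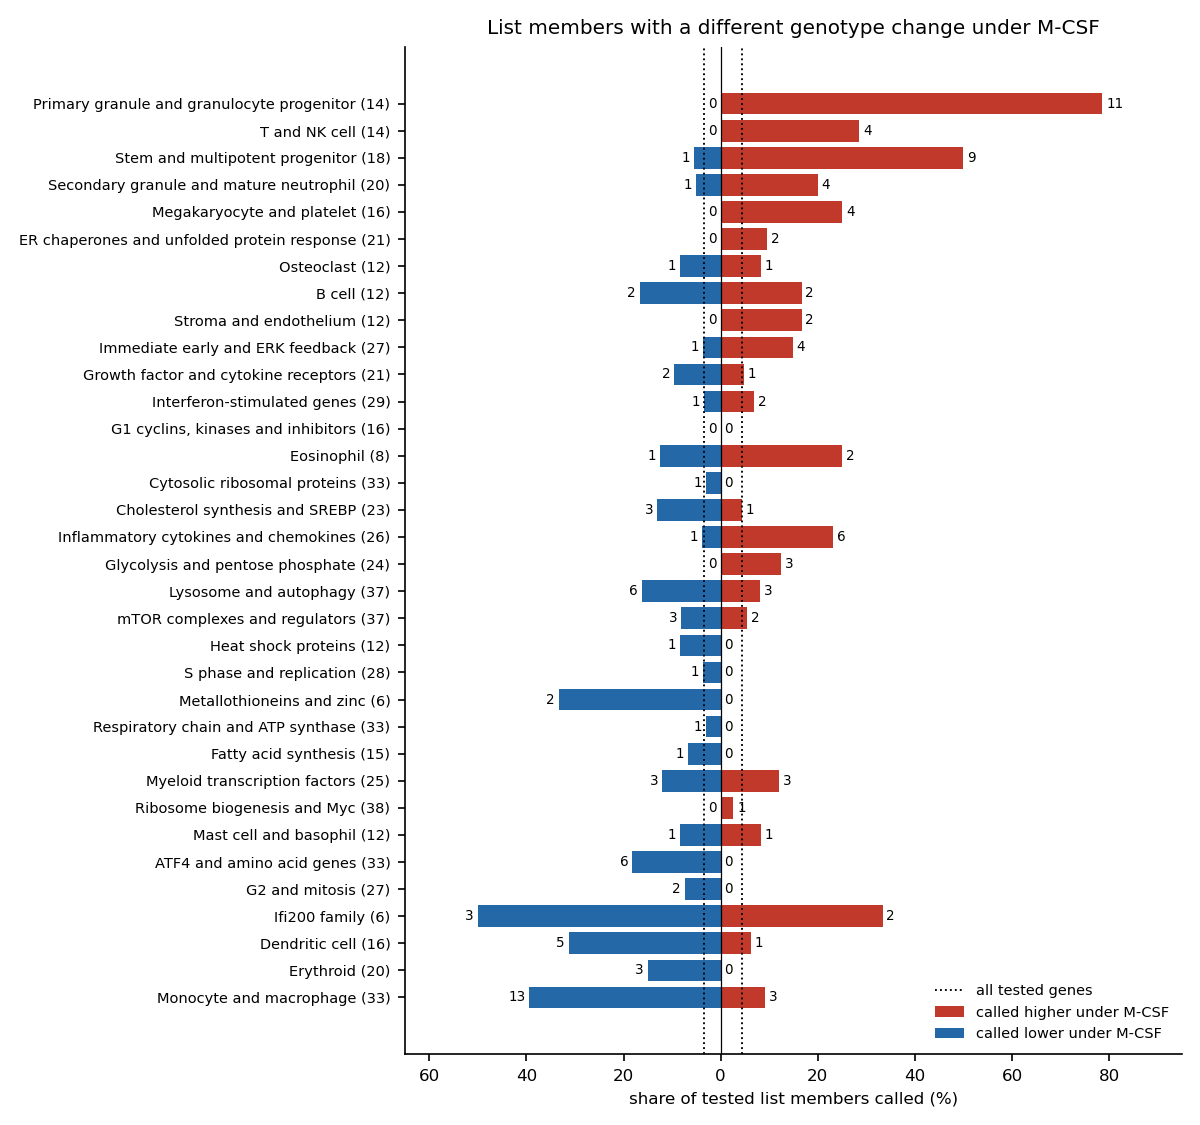
Share of the tested members of each of 34 gene lists (number tested in parentheses) with a called interaction, higher to the right in red and lower to the left in blue, with the member counts beside the bars and dotted lines at the 4.32% and 3.45% of all tested genes. Primary granule and granulocyte progenitor genes (11 higher) and stem and multipotent progenitor genes (9 higher) have long bars to the right. Monocyte and macrophage genes (13 lower) have a long bar to the left.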

How the data were processed

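Per the labels' protocols, RNA went through NuGEN whole-transcript amplification before hybridisation to gene arrays of 1 colour. The deposited values are log2 expression per probe set from the authors' processing, made with RMA, Partek 6.6 and limma per the submitters' processing notes, and they were used as deposited. Scanner files were not used here.

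Of 41345 probe sets, 23521 had 1 gene symbol, 1814 several and 16010 none. Each of 22180 genes was represented by its brightest single-gene probe set, and genes with a mean under percentile 25 (log2 3.86) were left out (5542), so that 16638 were tested. A single limma 3.58.1 fit (R 4.3.3) of all 20 arrays with 6 group means and 14 residual degrees of freedom gave each contrast. The empirical Bayes step used no trend, and p-values were adjusted by Benjamini-Hochberg over all tested genes. The steps were tested on simulated data. The number of arrays limits the precision.

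Genes named are the 15 largest called interactions in each direction, the 5 largest opposite ones in each direction, fixed regulators and up to 4 called members of each of 34 lists. A further 23 genes and some list members were named after their values were seen. The members and lists were chosen with earlier results of these data known. Alternatives were other filters, probe set rules, array sets, weights, scalings, a replicate block, a minimum fold and leaving out each array. Promoter windows are RefSeq's, on GRCm38.p6.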

Additional observations from a re-analysis of the deposited data

Results flagged for a closer look

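The genotype effect differed between the populations for 718 genes with a higher and 574 with a lower change under M-CSF by limma's test of the interaction. Among the named genes of largest change, 15 had every Rptor array on one side of the WT arrays in CMPs and on the other side under M-CSF. The 15 were picked for a large interaction on the same arrays, which favours such crossing, and the share among all tested genes is not given. Vcan and Ms4a4a were dim in CMPs, so their CMP side was read near the lowest signals. The interactions of the 15, each past the test, were 1.53 for Arap2, -2.67 for C3ar1, 1.91 for Cd27, -2.80 for Cd36, 2.11 for Cebpe, -4.01 for Clec4a3, 1.59 for Il12a and 1.60 for Mc5r. They were 2.30 for Mogat2, -3.37 for Ms4a4a, -3.17 for Nxpe4, 2.14 for Olr1, -2.69 for P2ry6, -2.78 for Tlr13 and -4.68 for Vcan.

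In 16 of 248 groups of 4 arrays, 1 array lay far from the other three by Dixon's ratio, where chance gives about 5%. WT M-CSF replicate 3 was the low array for Bpifc (5.48), Cd3g (6.12), Ern1 (8.55), Il7r (8.89) and Mgl2 (5.78). WT M-CSF replicate 2 was high for Fads1 (8.41), Fdps (9.92) and Mxd4 (7.94), and replicate 1 for Arap2 (6.76), Ccl22 (5.85) and Il4 (5.57). Replicate 4 was high for Nupr1 (7.71). Among Rptor M-CSF arrays, replicate 2 was high for Fcnb (10.38) and Fosb (4.75), replicate 1 low for Mitf (6.37) and replicate 4 low for Bpifc (6.43). Their part in the interactions of these genes was not tested, except that each array was left out in turn.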

How the results depend on the processing

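No called interaction of a named gene reversed direction under the alternatives run. Among the named genes that were not called, the interaction of Csf1r turned from 0.12 to -0.02 without Rptor CMP replicate 2. Of 130 called named genes, 52 were called under every alternative and 95 with each of the 14 arrays left out in turn. Asking for a change of at least 1.5-fold left 165 interaction calls (61 higher, 104 lower), 232 in CMPs (133 higher, 99 lower) and 113 under M-CSF (37 higher, 76 lower), and among the interaction genes 1 opposite, 2 in the same direction, 83 in CMPs alone, 46 under M-CSF alone and 33 in neither. Array weights gave 3048 calls in CMPs (1503 higher, 1545 lower), 1316 under M-CSF (712 higher, 604 lower) and 924 in CMPs alone. Population weights gave 2601 calls in CMPs and 1138 under M-CSF (606 higher, 532 lower), where the main fit gave 1905 and 2088, and 37 in the same direction. The 14 arrays alone gave 1027 interaction calls (560 higher, 467 lower) and 39 in the same direction. Leaving out 1 array gave 933 to 1365 interaction calls, 1229 to 2087 calls in CMPs (595 to 1079 higher), 67 to 100 opposite genes and 39 to 70 in the same direction. The cause was not tested. Interaction calls were 1231 with no filter, 1186 after median centring and 1343 after cyclic loess.

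The labels do not say whether samples with the same replicate number were handled as pairs. Their deviations from the group means correlated at -0.17 to 0.12 among CMP and M-CSF arrays, and at values down to -0.34 in GMPs. These correlations cannot decide the question, because the deviations within a small group are tied to each other. With the replicate number as a block, interaction calls were 1065 within population and 1308 over all populations.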
